A study of Mus musculus with 4 samples.

Results

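Alpha-beta T cells are the conventional T lymphocytes, whose antigen receptor pairs an alpha with a beta chain. Here they were picked among the CD45+ cells of mouse brain and dura mater by the genes of that receptor and of the CD3 complex that carries it. A cell was taken when it had unique molecular identifiers (UMIs, each one counted transcript) for at least 2 of the 3 genes Cd3e, Cd3d and Cd3g and for at least 1 of the 3 constant genes Trac, Trbc1 and Trbc2. It also had to have none for Trdc, Tcrg-C1, Cd163l1 and Cd79a, which mark gamma-delta T cells and B cells, and a value of the macrophage and microglia gene C1qa below 1.5 on the deposited natural log scale. The members were thus selected on measured values of these genes, whose levels are given only as a description. Among 14586 cells that passed the quality limits, out of 18969 barcodes, 786 met these conditions.

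The study applied photothrombotic injury (PTI), in which light makes a circulating dye clot the vessels, to the head of 8-week-old C57BL/6J mice, and sequenced sorted CD45+ cells of the brain and of the dura mater 3 days later. CD45 is the surface protein shared by leukocytes. There is 1 library of injured brain (brain D3), 1 of injured dura mater (dura mater D3) and 1 control for each tissue, labelled CT and taken here as the sham-operated day 3 controls of the study's methods (brain S3 and dura mater S3). The tissues were dissociated with collagenase, dispase and DNase and sorted by fluorescence, and the number of mice behind a library is not given in the sources used here. The sorting methods do not state whether blood was first flushed from the vessels, so cells of blood and of tissue cannot be told apart. The titles call all 4 libraries CD45pos, while the source label of both brain libraries reads CD45-+. With 1 library in each group no difference could be tested. The 95% intervals below come from exact Poisson or exact binomial (Clopper-Pearson) methods and cover counting error only, not the differences between mice or between cells.

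Alpha-beta T cells recirculate as naive cells between blood and lymphoid organs, guided by the receptors CCR7 and S1PR1, and turn after antigen contact into effector and memory cells that carry CD44 and home to tissue with receptors such as CXCR3, CCR2 and CXCR6. Those with the co-receptor CD4 help or, with the transcription factor FOXP3, restrain other cells, and those with CD8 kill target cells. Few of them are found in the healthy brain parenchyma, while the meninges hold them as a standing population.

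The marker genes Cd3e, Cd3d, Trac and Trbc2 had UMIs in 83.8% to 100% of the members of each library, which the rule largely fixed. Among the members, 27, 15, 14 and 2 had only 2 of the 3 Cd3 genes in brain S3, brain D3, dura mater S3 and dura mater D3, the order used for every set of 4 values below. Just outside, 67, 16, 24 and 13 cells had 1 of the 3 and met the other conditions. A further 303, 90, 175 and 144 cells passed on the Cd3 and receptor genes and were lost to an exclusion gene. The C1qa limit alone removed 62, 88, 37 and 40 cells, which is 10.7%, 39.5%, 31.6% and 42.1% of those left by then. The cells so removed held medians of 19201, 23765, 18338 and 19298 UMIs, above those of the members. The highest C1qa value among the members lay between 1.42 and 1.44, and the lowest among the cells removed lay between 1.52 and 2.02.

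The members held medians of 7265, 6148, 7752.5 and 6891 UMIs and together 4379897, 1249555, 742050 and 443569 UMIs, so the dura mater libraries, with 80 and 55 members, gave the widest intervals. Any pair of libraries shared between 3 and 11 barcodes, none of them a member's. UMIs of myeloid genes were found in the members too. Cells in which the microglia, monocyte and macrophage, neutrophil and dendritic cell genes took over 1% of the UMIs numbered 10, 18, 4 and 4, or 1.94%, 13.3%, 5% and 7.27% of the members. These cells were large, with medians of 24629, 26999, 18395.5 and 10722.5 UMIs against 7224, 5929, 7308 and 6790 in the others. All 8 monocyte and macrophage genes were present in brain D3, at a summed 15243 UMIs per 1000000 UMIs of the members (CPM) against 1173, 3451 and 3201 in brain S3, dura mater S3 and dura mater D3. Without the cells over 1% their sum was 889 CPM in brain D3, 260 in brain S3, 626 in dura mater S3 and 623 in dura mater D3. The 8 neutrophil genes, none at 0 in any library, summed to 1953, 11307, 26390 and 3521 CPM, and to 229, 326, 639 and 636 CPM without those cells. Arg1 of the first list was at 0 in both sham libraries. The dendritic cell genes summed to 990, 6016, 259 and 250 CPM. Of the 8 microglia genes, which summed to 176, 1038, 226 and 295 CPM, Tmem119 and Sparc were at 0 in both dura mater libraries and P2ry12 in dura mater S3. Values without the cells over 1% are given below as those of the low-myeloid members, a choice made after the data were seen. Shares of all genes above or below 0 or past 2-fold are not given for them. Their median log2 ratio over all genes was 0.07 for brain D3 over S3 and -0.03 for dura mater D3 over S3.

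Alpha-beta T cells made up a larger share of the CD45+ cells in brain S3 than in the other libraries. Brain S3 held 516 of them among 3748 cells, or 13.8% (95% interval 12.7 to 14.9). Brain D3 held 135 of 4601, or 2.93% (2.47 to 3.46), dura mater S3 held 80 of 3569, or 2.24% (1.78 to 2.78), and dura mater D3 held 55 of 2668, or 2.06% (1.56 to 2.67). The interval of brain S3 did not overlap the others. The C1qa limit took 10.7% of the cells that met the other conditions in brain S3. It took 39.5% in brain D3, 31.6% in dura mater S3 and 42.1% in dura mater D3. The effect of this uneven loss on the shares was not tested. A share of sorted cells falls when other CD45+ cells become more numerous as well as when T cells become fewer, and these readings cannot be told apart here.

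Shares were also taken among lymphocytes alone (alpha-beta and gamma-delta T cells, NK cells with group 1 innate lymphoid cells, and B cells). The C1qa limit was set on the alpha-beta cells only, from which it removed 62, 88, 37 and 40 cells. It was not set on the other classes, so the shares compare classes picked by unlike rules, and its effect on them was not tested. Under these rules the 2 brain libraries were close. The share was 34.9% (32.4 to 37.4) of 1480 lymphocytes in brain S3 and 31.4% (27.0 to 36.0) of 430 in brain D3. In the dura mater, where 816 and 198 B cells were found, it was 7.31% (5.84 to 9.01) of 1095 and 12.3% (9.38 to 15.7) of 448. Of the T cells of both receptor types, alpha-beta cells were 71.6% (68.1 to 74.8) and 63.7% (56.8 to 70.2) in the brain and 35.9% (29.6 to 42.5) and 30.6% (23.9 to 37.8) in the dura mater. Gamma-delta cells thus outnumbered alpha-beta cells in both dura mater libraries, with 143 and 125 cells, and not in those of the brain, with 205 and 77.

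**Figure D1:**
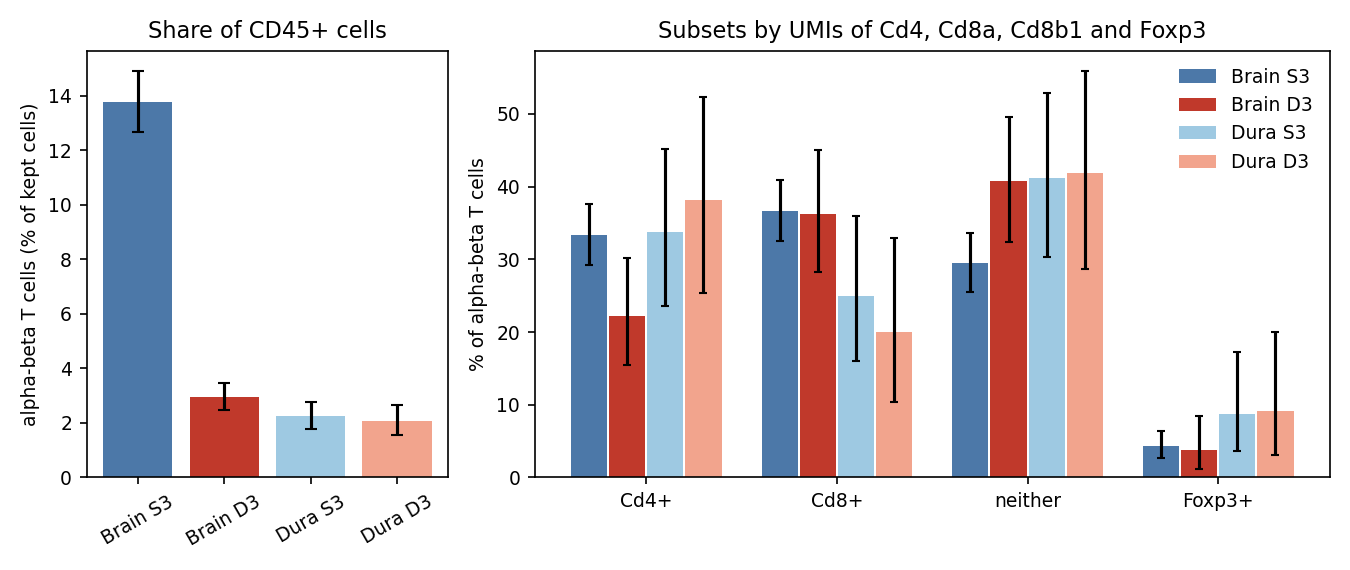
Left, alpha-beta T cells as a percentage of the kept CD45+ cells of each library, and right, their Cd4+, Cd8+, Cd4- and Cd8-negative ("neither") and Foxp3+ subsets as a percentage of the alpha-beta T cells. Bars are single libraries and whiskers exact binomial 95% intervals. Brain S3 stands apart at 13.8%, while the intervals of most subsets overlap between libraries.

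The members were split by their co-receptors. Cd4 (chromosome 6, 124864692 to 124888221, minus strand, mm10) encodes the co-receptor of helper and regulatory cells, and Cd8a (chromosome 6, 71373427 to 71379173, plus strand) and Cd8b1 (chromosome 6, 71322788 to 71337494, plus strand) the chains of that of cytotoxic cells. Cells with Cd4 UMIs and no Cd8a numbered 172, 30, 27 and 21, and cells with Cd8a or Cd8b1 and no Cd4 numbered 189, 49, 20 and 11. A cell with both Cd4 and Cd8a was seen 3 times in brain S3, 1 time in brain D3 and not at all in the dura mater. Of the cells counted as Cd4+, 11, 0, 2 and 1 also had Cd8b1. The rest, 152, 55, 33 and 23 cells, had neither.

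Cd4+ cells were 33.3% (29.3 to 37.6), 22.2% (15.5 to 30.2), 33.8% (23.6 to 45.2) and 38.2% (25.4 to 52.3) of the alpha-beta T cells. Cd8+ cells were 36.6% (32.5 to 41.0), 36.3% (28.2 to 45), 25% (16.0 to 35.9) and 20% (10.4 to 33.0). Both sets of intervals overlapped across the 4 libraries. The overlap was narrow for Cd4+ cells between the brain libraries and for Cd8+ cells between brain S3 and dura mater D3. Cd4 was the weaker label. With every member thinned to 2000 UMIs, Cd4+ cells fell to 14.6%, 9.15%, 16.3% and 18.0% and Cd8+ cells to 32.6%, 31.1%, 18.3% and 17.0%, while the cells with neither gene made up 52.7%, 59.6%, 65.4% and 65.0%, so all 3 shares depended on depth. B cells, which should lack both, had Cd4 in 1.47%, 3.09%, 3.31% and 5.56% of cells and Cd8a in 0%, 1.03%, 0.123% and 0.505%, at medians of 4988.5, 3814, 6114 and 5725.5 UMIs. Of the Cd8+ cells 160, 41, 15 and 9 carried both Cd8a and Cd8b1, the pairing of conventional cytotoxic cells.

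Foxp3 (chromosome X, 7573644 to 7595245, plus strand), the transcription factor that defines regulatory T cells, had UMIs in 22, 5, 7 and 5 members. These were 4.26% (2.69 to 6.38), 3.70% (1.21 to 8.43), 8.75% (3.59 to 17.2) and 9.09% (3.02 to 20), against 0.183%, 1.03%, 0% and 0% of B cells. The shares were higher in both dura mater libraries, but all 4 intervals overlapped. Thinned to 2000 UMIs they were 2.16%, 2.23%, 5.08% and 6.01%. Of the Foxp3+ cells 15, 1, 4 and 4 were Cd4+ and 2, 1, 0 and 0 Cd8+, the others having neither.

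Cd8+ members had higher levels of most cytotoxic genes than Cd4+ members, although only Cd4, Cd8a and Cd8b1 had been used to separate them. Of the cytotoxic genes with at least 10 UMIs, 12 of 12, 11 of 12, 9 of 9 and 7 of 8 were above the Cd4+ level in Cd8+ cells, 11, 9, 9 and 7 of them at least 2-fold. The list medians were 2.48, 1.99, 3.60 and 2.95 on the log2 scale, while 45.6%, 44.8%, 41.4% and 50.5% of all genes were above 0. Klrd1, which encodes the receptor subunit CD94 and belongs to a family of similar genes whose reads may be split, stood at 201, 149, 320 and 281 CPM in Cd8+ cells against 26.5, 14.2, 8.25 and 19.2 in Cd4+ cells, log2 ratios of 2.92 (2.42 to 3.46), 3.39 (1.98 to 5.30), 5.28 (3.37 to 8.35) and 3.87 (2.17 to 6.23). The log2 ratios of Gzmb, the gene of the protease granzyme B, were 3.63, 4.95, 4.82 and 2.55. Ly6c2, a surface protein of memory Cd8 cells, gave 2.96, 2.33, 3.37 and 2.68, and Nkg7, a granule protein, 2.29, 1.66, 2.10 and 2.36.

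The T helper transcription factors were divided between the subsets. Of those measured 6 of 9, 4 of 8, 4 of 6 and 3 of 5 were higher in Cd4+ cells, of which 4, 3, 4 and 3 by at least 2-fold. Over all genes with at least 10 UMIs 54.4%, 55.2%, 58.6% and 49.5% were higher in Cd4+ cells, so these counts lay near that background in several libraries. The list medians were -0.92, -0.06, -1.52 and -1.44, and that of brain D3 was near the median of all genes, -0.07. Single genes outside that list were higher in Cd4+ cells too. Cd5, a brake on receptor signalling, had log2 ratios of -1.55, -1.48, -2.19 and -3.26 for Cd8+ over Cd4+ cells. Izumo1r, which encodes folate receptor 4, had -2.88, -3.08, -3.02 and -3.68. Icos, a co-stimulatory receptor, had -1.67 (-1.96 to -1.38), -0.55 (-1.12 to 0.04), -2.65 (-3.53 to -1.86) and -2.77 (-4.27 to -1.57), so its interval reached 0 in brain D3. Zbtb7b, the transcription factor that commits thymocytes to the Cd4 lineage, had -3.40 (-5.10 to -2.06) in brain S3. Ifng, the gene of interferon gamma, did not separate the subsets, at -0.12 (-0.38 to 0.15), 0.38 (-0.04 to 0.82), 0.45 (-0.54 to 1.47) and -0.01 (-0.66 to 0.63). As background, 2.51% of the 5655 genes with at least 50 UMIs in brain S3 were at least 2-fold higher and 2.16% at least 2-fold lower in Cd8+ than in Cd4+ cells. The shares were 3.18% and 3.65% in brain D3, 2.12% and 6.06% in dura mater S3 and 7.92% and 6.13% in dura mater D3, where fewer genes were deep enough. List genes needed only 10 UMIs, so these shares are not a like-for-like background for the 2-fold counts of the lists.

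**Figure D2:**
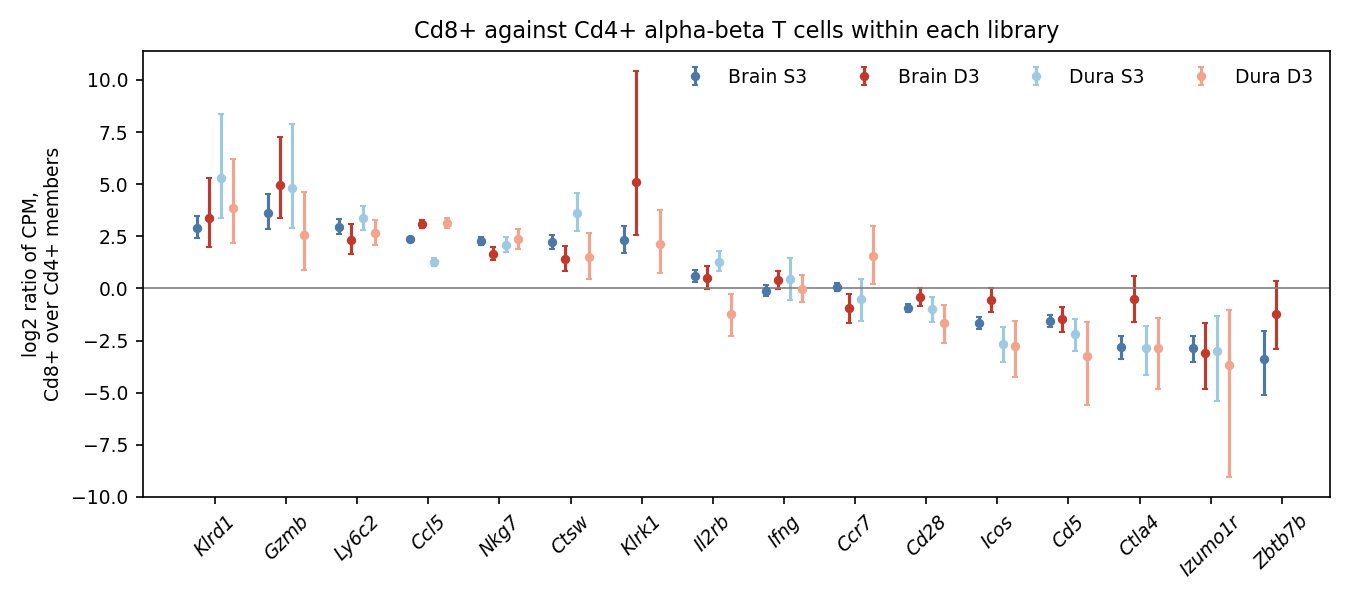
Log2 ratio of CPM of Cd8+ over Cd4+ alpha-beta T cells for 16 genes within each library, with exact 95% counting intervals. Points are drawn where both subsets had UMIs and the sum was at least 10. Klrd1 to Klrk1 lie above 0 and Cd28 to Zbtb7b below 0 wherever drawn, while Ifng lies on both sides of 0.

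The Foxp3+ cells carried other genes of regulatory T cells. Set against the remaining Cd4+ cells of brain S3, the 15 Cd4+ Foxp3+ cells had 741 against 45.9 CPM of Ikzf2, the transcription factor Helios, a log2 ratio of 4.01 (3.54 to 4.50). Ctla4, an inhibitory receptor, gave 3.73 (3.29 to 4.17), Tnfrsf4, the receptor OX40, 3.29 (2.78 to 3.81), and Il2ra, the high-affinity interleukin-2 receptor chain, 2.77 (1.30 to 4.23). Ccr7 was lower in them, at -1.62 (-2.44 to -0.90). The 4 such cells of dura mater D3 showed the same direction for Ikzf2, at 3.61 (2.88 to 4.42), and Il2ra, at 3.38 (1.91 to 5.16), and the 4 of dura mater S3 for Ikzf2, at 1.69 (1.01 to 2.33). The single Cd4+ Foxp3+ cell of brain D3 allowed no reading. In brain S3 8.96% of 3202 genes were at least 2-fold higher and 7.03% at least 2-fold lower in this comparison. The shares were 22.3% and 8.14% in brain D3, 7.04% and 10.7% in dura mater S3 and 7.12% and 8.91% in dura mater D3.

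The cells with neither co-receptor gene were richer than Cd4+ cells in several genes of killer cells. Klrb1c, which encodes the receptor NK1.1, stood at 121, 137, 199 and 112 CPM in them and at 3.68 CPM in the Cd4+ cells of brain S3, with no UMI in the Cd4+ cells of the other libraries. Klrb1c or Ncr1, the gene of the receptor NKp46, had UMIs in 34.2% (26.7 to 42.3), 34.5% (22.2 to 48.6), 51.5% (33.5 to 69.2) and 43.5% (23.2 to 65.5) of these cells. Among Cd4+ cells the share was 2.91% in brain S3 and 0% in the others, with 0 of 30, 0 of 27 and 0 of 21 cells. Approximate upper limits for these counts were 10%, 11.1% and 14.3%. They did not come from the exact binomial method, whose upper limits are higher. In B cells Klrb1c was found in at most 1.03% of the cells of any library.

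Klrd1 was also higher in the cells with neither gene than in Cd4+ cells, at log2 ratios of 3.52, 4.27, 5.11 and 4.38, as was the chemokine gene Xcl1 at 4.24, 2.48, 5.78 and 4.36. Il2rb, the interleukin-2 and interleukin-15 receptor beta chain, was at 1.93, 1.49, 1.69 and 1.52. Cd5 was lower, at -1.40, -1.14, -2.48 and -1.76. In brain S3 3.79% of 5244 genes were at least 2-fold higher and 1.43% at least 2-fold lower in this comparison. The shares were 3.55% and 4% in brain D3, 3.92% and 4.92% in dura mater S3 and 3.61% and 3.84% in dura mater D3. Zbtb16, the transcription factor of innate-like T cells, had only 16, 10, 6 and 1 UMIs in these cells.

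Among cells with at least 5 Trbc UMIs and no tie, Trbc1 was the more abundant constant gene in 30.7% (26.6 to 34.9), 26.7% (18.9 to 35.7), 32.9% (22.3 to 44.9) and 32.7% (19.9 to 47.5), and Trbc2 in the others. Both Trbc genes are nearly identical in sequence, so reads may be split between them, and 62.6% of the brain S3 members had UMIs of both. Variable beta genes (Trbv) were caught in 61, 12, 4 and 0 members, and variable alpha genes (Trav) in 109, 7, 5 and 5. Trbv12-2, the gene seen in the most members, was in 17, 2, 4 and 0. The libraries read the 3' end of transcripts, where variable segments are seldom reached.

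Genes of naive and recirculating T cells were lower in alpha-beta T cells of the injured brain than in those of the sham brain. All 12 genes of this list were below the sham level in brain D3, 7 of them by at least 2-fold, with a median log2 ratio of -1.13 where the median of all 10727 genes with at least 10 UMIs was 0.03. As background, 6.9% of those genes were at least 2-fold lower, 10.9% at least 2-fold higher and 47.5% below 0.

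Ccr7 (chromosome 11, 99144196 to 99155077, minus strand), the receptor that leads T cells into lymph nodes, stood at 250, 82.4, 53.9 and 85.7 CPM, so brain S3 was above the other 3 libraries. Its log2 ratio in brain D3 over S3 was -1.60 (-1.91 to -1.31). Lef1, a transcription factor of naive cells, was at 326, 123, 162 and 101 CPM and differed by -1.40 (-1.65 to -1.16). Satb1, a chromatin organizer, was at 464, 193, 323 and 183 CPM and differed by -1.27 (-1.47 to -1.07).

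Klf2, the factor that keeps S1pr1 on, had the largest ratio between the sham tissues of the 12 genes. It stood at 1578, 787, 327 and 365 CPM, with a brain injury log2 ratio of -1.0 (-1.10 to -0.91). Tcf7, Il7r and S1pr1 moved less, at -0.80, -0.79 and -0.69. Dapl1, at 173, 55.2, 56.6 and 29.3 CPM, differed by -1.64 (-2.02 to -1.29), and Bach2, at 37.4 and 32.0 CPM in the brain, was the one gene of the list whose interval included 0, at -0.23 (-0.76 to 0.28).

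The difference was also present within each subset. The median of the list for brain D3 over S3 was -0.85 among Cd4+ and -1.42 among Cd8+ cells. For Ccr7 the log2 ratios were -1.06 (-1.57 to -0.58) and -2.08 (-2.60 to -1.60). Among low-myeloid members the median was -0.78, with 11 of the 12 genes below 0 and 3 at least 2-fold lower, and Ccr7 was at -1.32 and Lef1 at -0.97.

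**Figure D3:**
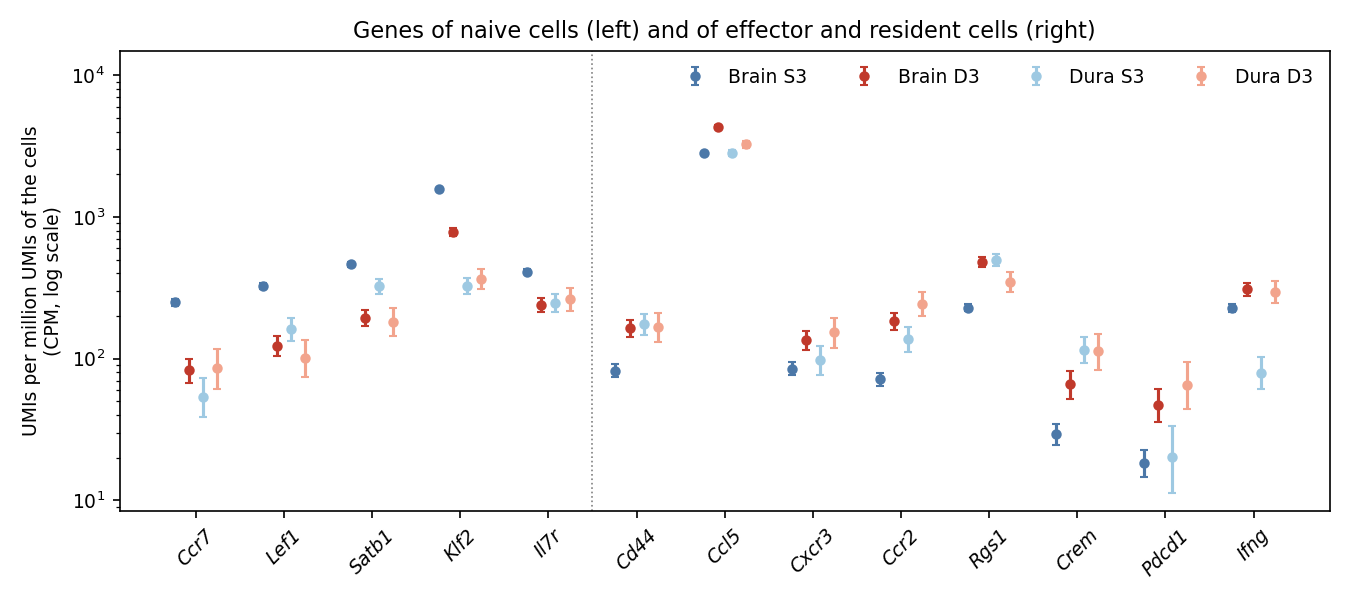
CPM (log axis) of 5 genes of naive cells, left of the dotted line, and 8 genes of effector, resident and activated cells, right of it, over the alpha-beta T cells of each library. Points are single libraries and bars exact Poisson 95% intervals. Brain S3 is the highest of the 4 libraries for all 5 genes on the left, with Ccr7 at 250 CPM against 53.9 to 85.7 in the others.

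Counted per cell, members with Ccr7 and no Ccl5 numbered 229, 24, 10 and 7. They made up 44.4% (40.0 to 48.8) of the members in brain S3, 17.8% (11.7 to 25.3) in brain D3, 12.5% (6.16 to 21.8) in dura mater S3 and 12.7% (5.27 to 24.5) in dura mater D3. The brain S3 interval lay above the other 3, which overlapped. Ccr7 had UMIs in 55.8%, 27.4%, 18.8% and 14.5% of the members and in 4.69%, 2.48%, 3.57% and 2.86% of NK and group 1 innate lymphoid cells, which lack it, at medians of 7518, 5962, 6824.5 and 8600 UMIs. B cells express Ccr7 and Klf2 themselves and were not used as a background for them.

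Genes of effector and memory cells were on the opposite side. In brain D3 11 of the 13 genes of this list were above the brain S3 level, with a median log2 ratio of 0.45, although 1 alone reached 2-fold. Over all genes 52.5% were above 0. Cd44, the hyaluronan receptor of antigen-experienced cells, stood at 82.0, 164, 175 and 167 CPM, so brain S3 was the lowest library, with a brain log2 ratio of 1.0 (0.75 to 1.25). Ccl5 (chromosome 11, 83525778 to 83530518, minus strand), a chemokine of memory and cytotoxic cells, was at 2824, 4318, 2839 and 3258 CPM, a ratio of 0.61 (0.57 to 0.66). It had UMIs in 41.3%, 65.2%, 55% and 58.2% of the members and in 8.79%, 6.19%, 3.68% and 6.06% of B cells.

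Cxcr3, the receptor for interferon-induced chemokines, was at 84.9, 135, 98.4 and 153 CPM, or 0.67 (0.40 to 0.94) in the brain, and the integrin chain gene Itgb1 at 0.52 (0.33 to 0.71). Id2, a factor of effector cells, hardly differed, at 347, 351, 346 and 365 CPM. Members with Ccl5 and no Ccr7 were 29.8% (25.9 to 34.0) in brain S3 and 55.6%, 48.8% and 56.4% in the other libraries. Among Cd8+ cells they were 29.1% (22.7 to 36.1) in brain S3 and 69.4% (54.6 to 81.8) in brain D3, and among Cd4+ cells 12.2% (7.72 to 18.1) and 30% (14.7 to 49.4). In low-myeloid members all 13 genes of the list were above 0, with a median of 0.50, Ccl5 at 1.09 and Cxcr3 at 1.11.

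Among genes of tissue residency, Rgs1 and Crem were at least 2-fold higher in brain D3. Rgs1 (chromosome 1, 144242296 to 144249242, minus strand), which dampens chemokine receptor signals and marks resident cells, was at 229, 482, 497 and 347 CPM, 1.07 (0.92 to 1.22) in the brain. Crem, a transcription factor of activated cells, was at 29.2, 65.6, 116 and 113 CPM, or 1.17 (0.75 to 1.58). Of the migration receptors Ccr2, the receptor for monocyte chemokines, was at 71.2, 183, 137 and 243 CPM, or 1.36 (1.11 to 1.61), and at 0.97 in low-myeloid members. Itgae, the integrin CD103 of epithelial resident cells, went the other way, with UMIs in 54 cells of brain S3 and 2 of brain D3, a ratio of -3.63 (-6.70 to -1.74). Over the 11 residency genes measured the median was 0.41, with 2 at least 2-fold higher and 1 at least 2-fold lower.

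Of the 9 genes of inhibitory receptors and chronic stimulation measured in the brain, 5 were above the sham level, 2 at least 2-fold, with a median of 0.25. These 2 were Pdcd1 (chromosome 1, 94038305 to 94052553, minus strand), the gene of PD-1, and Havcr2, the gene of TIM-3, at 1.53 (0.40 to 2.64) from 11 and 7 cells. In low-myeloid members Havcr2 had no UMI in brain D3. In the dura mater 4 of 7 genes were above the sham level, with a median of 0.28. Pdcd1 stood at 18.3, 47.2, 20.2 and 65.4 CPM, above the sham level in both injured tissues. The log2 ratios were 1.37 (0.86 to 1.87) in the brain and 1.69 (0.75 to 2.70) in the dura mater, and 1.86 and 1.83 in low-myeloid members. Cells with a UMI were 6.01%, 21.5%, 12.5% and 25.5% of the members, against 0.366%, 1.03%, 0.98% and 0.505% of B cells. Thinned, they were 2.75%, 11.4%, 3.57% and 13.0%. Lag3, Havcr2 and Tigit were sparse, with UMIs in at most 16 cells of any library.

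For cytotoxic genes the medians had opposite signs in the injured brain and dura mater, and that difference was not tested. In brain D3 8 of 12 were above the sham level, with a median of 0.31, and in dura mater D3 3 of 12, with a median of -0.77, where 5.93% and 7.06% of 8093 genes were at least 2-fold higher and lower, 50.4% and 49.6% were above and below 0 and the median of all genes was 0.01. Gzmb was at 149, 227, 87.6 and 42.8 CPM, with log2 ratios of 0.61 (0.40 to 0.81) and -1.03 (-1.85 to -0.28). A single cell gave 66% of the Gzmb UMIs of dura mater S3, and only 10 and 6 dura mater cells had any. Gzma, at 321, 339, 233 and 90.2 CPM, came from 38, 14, 8 and 4 cells, 1 of which held 90% of the UMIs in dura mater D3.

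Gzmk, the granzyme of memory cells, was at 17.6, 38.4, 13.5 and 42.8 CPM and higher in both injured tissues, at 1.13 (0.58 to 1.67) and 1.67 (0.49 to 2.94). Its 5 and 7 dura mater cells were few. Fasl, the death ligand, was at 31.3, 56.0, 70.1 and 56.4 CPM, or 0.84 (0.40 to 1.27) in the brain. Within Cd8+ cells of the brain Gzmb was at 1.37 (1.07 to 1.66). In low-myeloid members all 12 cytotoxic genes were above 0 in brain D3, with a median of 0.58, and the dura mater median was -0.80. The NK and group 1 innate lymphoid genes moved with the cytotoxic list in the dura mater. All 8 were below the sham level in dura mater D3, 3 at least 2-fold, with a median of -0.97. The summed levels were 1721 and 1204 CPM at S3 and D3. For 3 of the 8 no UMI was seen in dura mater D3, so their ratios rest on the floor of 3 UMIs. In low-myeloid members all 8 were again below the sham level, 4 at least 2-fold. Their median was -1.11 and the sums were 1446 and 633 CPM. Their part in the cytotoxic difference was not tested.

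Among cytokines, Ifng was at 228, 308, 79.5 and 298 CPM, with log2 ratios of 0.44 (0.26 to 0.61) in the brain and 1.90 (1.45 to 2.37) in the dura mater. The shares of members with a UMI, 27.5%, 45.9%, 32.5% and 36.4%, differed less than the levels in the dura mater, and 20% of its UMIs in dura mater D3 came from 1 cell. B cells had it in 2.56%, 1.03%, 0.613% and 1.52%. Il17a came from 9, 0, 4 and 1 cells, and Il5 had no UMI in any member. Il4 UMIs sat in 8, 3, 5 and 0 cells, 84% of those of dura mater S3 in 1 cell, and Csf2 likewise, with 97% in 1 cell. The whole list of 12 had a median of 0.02 in the brain, with 1 gene at least 2-fold higher and 3 lower. Among T helper transcription factors Tbx21, the T-bet of interferon-producing cells, was at 29.2, 42.4, 59.3 and 36.1 CPM and Rora at 76.9, 129, 139 and 180 CPM, with brain ratios of 0.54 (0.05 to 1.01) and 0.74 (0.46 to 1.02).

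The genes of T cell receptor signalling changed side when the members over 1% myeloid UMIs were left out. In brain D3 13 of 16 were below the sham level, with a median of -0.23 and none past 2-fold. Over all genes 47.5% were below 0. Lck, the kinase of the receptor, was at 360 CPM in brain S3 and 295 in brain D3. In low-myeloid members 15 of 16 were above the sham level, with a median of 0.20 and Lck at 0.14. The median of all genes was 0.07 in these members, so the shift was small. In dura mater D3 11 of 16 were above the sham level, with a median of 0.16, where 50.4% of all genes were above 0.

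Genes of the type I interferon response were higher in brain D3, and myeloid transcripts were present in the same cells. All 12 genes were above the brain S3 level, 8 at least 2-fold, with a median of 1.33. Over all genes 52.5% were above 0 and 10.9% at least 2-fold higher. Isg15, a ubiquitin-like interferon target, was at 68.5, 259, 119 and 243 CPM, with brain and dura mater ratios of 1.92 (1.69 to 2.15) and 1.04 (0.62 to 1.46). One cell held 32% of its UMIs in brain D3 and another 60% in dura mater D3, and for Ifit1 1 cell of dura mater D3 held 92%. In low-myeloid members the brain median was 0.84 with 11 of 12 above 0 and Isg15 at 1.0. The dura mater median, 0.97 over all members, was -0.36 in them, with Isg15 at -0.47. The summed monocyte and macrophage genes given above moved with the brain difference, and their part in the result was not tested.

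Hypoxia and glycolysis genes showed the same pattern in the brain. Of 12 genes 10 were above the sham level, 4 at least 2-fold, with a median of 0.87. The shares over all genes were again 52.5% above 0 and 10.9% at least 2-fold higher. Pgam1, a glycolytic enzyme, was at 85.4, 279, 127 and 101 CPM, or 1.71 (1.5 to 1.92), and Bnip3, a hypoxia target, at 3.88, 41.6, 6.74 and 6.76 CPM, or 3.42 (2.61 to 4.31). In low-myeloid members the median was 0.37, Pgam1 was at 0.60, Bnip3 at 1.15 and Hif1a, the oxygen-sensing factor, at 0.62 against 0.67 over all members. The part of the myeloid transcripts was not tested.

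**Figure D4:**
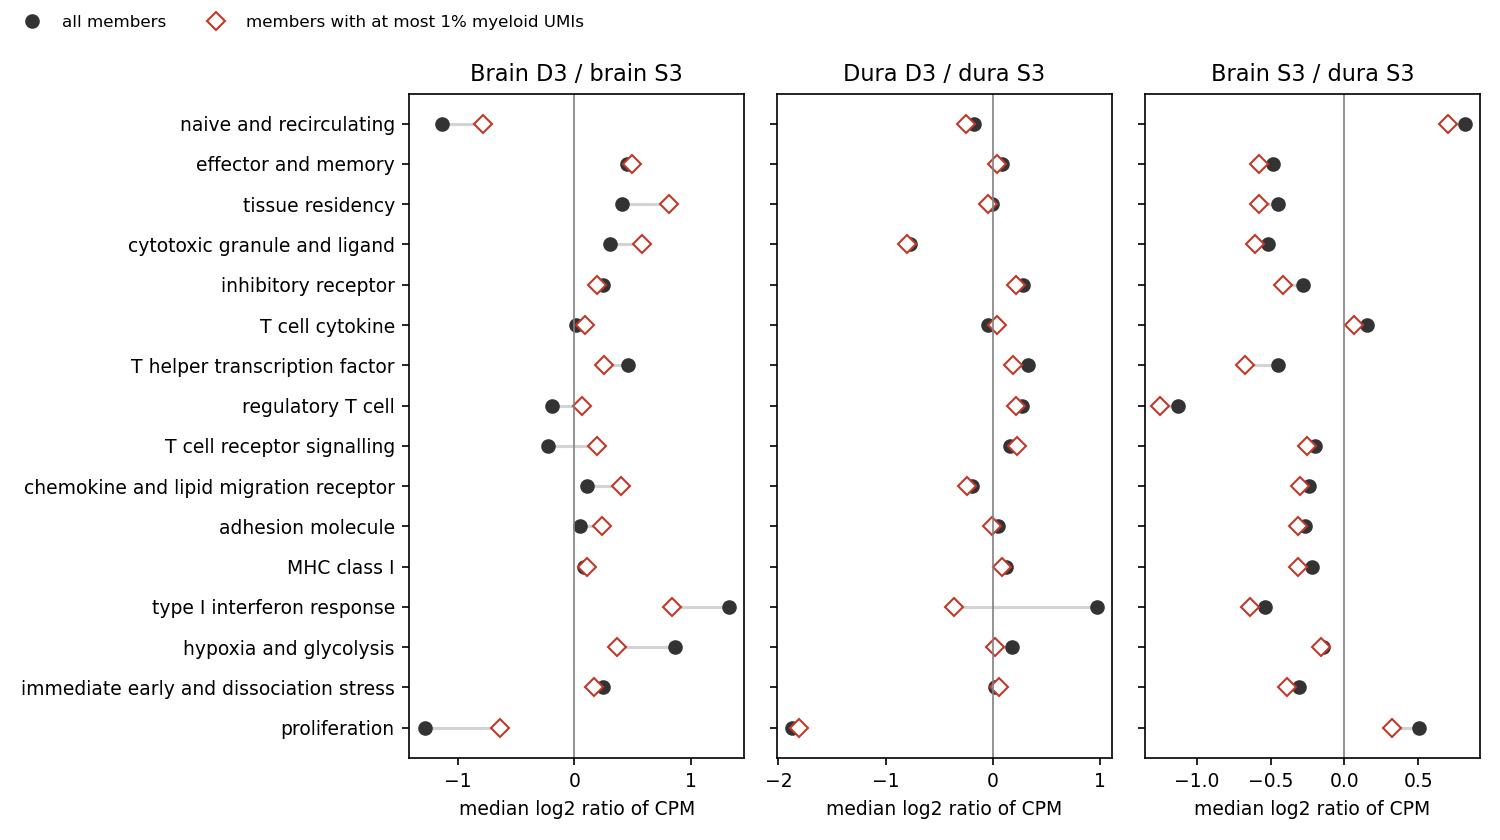
Median log2 ratio of CPM for 16 gene lists in 3 comparisons, over all alpha-beta T cells (filled circles) and over those with at most 1% myeloid UMIs (open diamonds). Each panel has its own horizontal scale. In the brain the naive list is at -1.13 and -0.78, and in the dura mater the interferon list moves from 0.97 to -0.36 when the cells over the limit are left out.

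Between the tissues, alpha-beta T cells of brain S3 had a more naive profile than those of dura mater S3. The part of blood cells in this difference was not tested. All 12 naive genes were higher in brain S3, 5 by at least 2-fold, with a median log2 ratio of 0.81, while 12 of 13 effector and memory genes were lower, with a median of -0.49. The median of all 10386 genes was itself at -0.17 in this comparison, with 5.83% at least 2-fold higher, 9.53% at least 2-fold lower, 37.3% above 0 and 62.7% below 0. Ccr7 was at 2.21 (1.76 to 2.71), Klf2 at 2.27 (2.08 to 2.46), Lef1 at 1.01 (0.74 to 1.29), Cd44 at -1.10 (-1.39 to -0.80), Rgs1 at -1.12 (-1.29 to -0.94) and Crem at -1.99 (-2.39 to -1.58).

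After injury the naive median was nearer to 0, less so in low-myeloid members. The naive median of brain D3 over dura mater D3 was 0.16, where the median of all 8820 genes was -0.08, 44.1% of them above and 55.9% below 0, and Ccr7 was at -0.06 (-0.61 to 0.52). Klf2 stayed higher in the brain, at 1.11 (0.87 to 1.36). In low-myeloid members the naive medians were 0.70 at S3 and 0.41 at D3, where 10 of the 12 genes were above 0 and 3 at least 2-fold higher. Comparisons that share a library are not independent, and the difference between both tissue comparisons was not tested.

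Regulatory T cell genes were lower in the brain at both states. In brain S3 11 of 13 were below the dura mater S3 level, 7 at least 2-fold, with a median of -1.13. In brain D3 11 of 12 were below dura mater D3, 9 at least 2-fold, with a median of -1.75, where 9% of genes were at least 2-fold higher and 7.9% at least 2-fold lower. Foxp3 itself was at 13.7, 12, 25.6 and 49.6 CPM, a ratio of -0.90 (-1.67 to -0.08) at S3 and -2.05 (-3.10 to -1.03) at D3. Ikzf2 was at 139, 102, 303 and 397 CPM, or -1.13 (-1.35 to -0.90) and -1.95 (-2.29 to -1.62). Tnfrsf18, the receptor GITR, was at 87.9, 107, 203 and 271 CPM, and Tnfrsf4 at 36.8, 45.6, 171 and 135 CPM. Within Cd8+ cells Ikzf2 and Tnfrsf18 were lower in the brain at S3 too, at -1.08 (-1.76 to -0.35) and -1.25 (-1.88 to -0.57). The S3 difference of both genes was thus not confined to Cd4+ cells. At D3 their intervals within Cd8+ cells spanned both signs, as did those of the other list genes measured there at S3.

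The dura mater values of some of these genes rested on few cells. Areg, the growth factor amphiregulin, was at 6.16, 13.6, 104 and 74.4 CPM from 9, 3, 8 and 6 cells. Il1rl1, the interleukin-33 receptor, came from 11, 3, 6 and 6 cells. Il2ra was found in 4.07%, 8.89%, 21.2% and 14.5% of the members, and B cells of the dura mater also had it, in 18.5% and 8.59%. In low-myeloid members the medians of the list were -1.25 and -1.37. Areg and Il1rl1 also belong to the list of group 2 innate lymphoid cells, whose medians were -3.15 at S3 and -2.45 at D3. Without these 2 genes the regulatory medians were -1.0 over 11 genes and -1.57 over 10.

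Mast cell genes were lower in the brain at S3 too, at a summed 15.5 CPM in brain S3 against 1113 in dura mater S3. At D3 the sums were 65.6 CPM in the brain and 99.2 in the dura mater. Of the 2 mast cell genes measured at D3, 1 was above and 1 below 0, and no interval excluded 0. A single member of dura mater S3 held 90.9% of the mast cell UMIs of that library, and the limit on myeloid UMIs did not remove it. Without it the sum of dura mater S3 was 102 CPM and the regulatory median at S3 was -1.14, with 11 of 13 genes below 0. That cell was left out after the data were seen. The part of innate lymphoid transcripts in the regulatory difference was not tested.

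**Figure D5:**
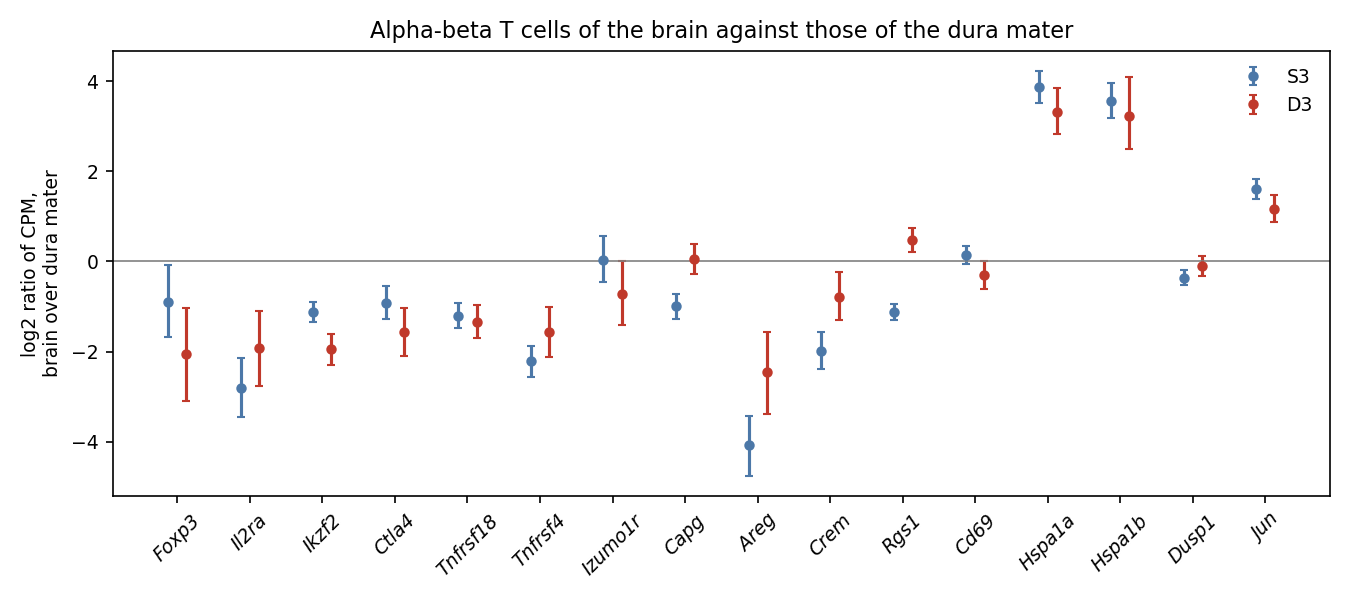
Log2 ratio of CPM of brain over dura mater alpha-beta T cells for 16 genes at S3 and at D3, with exact 95% counting intervals. The genes from Foxp3 to Tnfrsf4 lie below 0 at both states, Hspa1a, Hspa1b and Jun above 0, and Rgs1 is at -1.12 at S3 and 0.47 at D3.

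Heat shock genes were far higher in the brain. Hspa1a (chromosome 17, 34969190 to 34972156, minus strand) was at 1372, 760, 94.3 and 76.7 CPM and its near copy Hspa1b at 902, 319, 76.8 and 33.8 CPM, and reads may be split between these 2 genes. The brain over dura mater log2 ratios of Hspa1a were 3.86 (3.52 to 4.22) at S3 and 3.31 (2.82 to 3.85) at D3. B cells of the same libraries had Hspa1a in 61.2%, 52.6%, 24.5% and 16.2% of cells, against 69.2%, 48.9%, 18.8% and 9.09% of the members, so B cells had the same order of tissues. Tissue and library cannot be told apart here.

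The immediate early genes did not move as a block. Jun was higher in the brain, at 750, 543, 247 and 243 CPM, with ratios of 1.60 (1.39 to 1.83) and 1.16 (0.86 to 1.46). Junb, Ier2, Fosb and Egr1 were lower at S3, at -0.66, -1.03, -1.27 and -1.04.

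Proliferation genes came from few cells. Mki67, the nuclear marker of cycling cells, was in 28, 10, 12 and 3 members, at 69.4, 29.6, 49.9 and 9.02 CPM. Of 12 genes none was above the sham level in brain D3 and 8 were at least 2-fold lower, with a median of -1.29. Over all genes 47.5% were below 0 and 6.9% at least 2-fold lower. In low-myeloid members 3 of the 12 were above the sham level and 3 at least 2-fold lower, with a median of -0.64. In dura mater D3 7 of the 11 measured were at least 2-fold lower, against 7.06% of all genes. The median was -1.87, and -1.81 in low-myeloid members. A single cell of dura mater S3 held 62% of the Mki67, 96% of the Ube2c and 88% of the Cdk1 UMIs. The share of members with Mki67 or Top2a did not follow the sums, at 15.1%, 20.7%, 28.8% and 14.5%.

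Set against gamma-delta T cells of the same library, alpha-beta cells had higher levels of most naive genes. Among 12 such genes 11, 11, 10 and 10 were above 0 and 9, 9, 9 and 8 at least 2-fold higher, with medians of 1.42, 1.34, 1.5 and 1.28, while 33.7%, 39.7%, 41.4% and 42.7% of all genes were above 0. Ccr7 log2 ratios were 2.69, 2.08, 2.44 and 3.16, and those of the co-stimulatory receptor gene Cd28 2.34, 2.46, 2.90 and 4.82. Il17a was at 42.5, 0, 31.0 and 4.51 CPM in alpha-beta cells and at 950, 370, 1108 and 384 in gamma-delta cells. In brain D3 that is at least 7.27 log2 units lower, with the alpha-beta cells set to a floor of 3 UMIs over the group. Il17a or Il17f had UMIs in 2.13%, 0.741%, 5% and 1.82% of alpha-beta cells and in 36.6%, 37.7%, 52.4% and 40% of gamma-delta cells, whose medians were 6687, 6636, 7107 and 7366 UMIs. The alpha-beta cells had to lack Tcrg-C1 and Cd163l1, which was not asked of the gamma-delta cells. The part of that rule in the Il17a and Il17f differences was not tested. Pdcd1 was at -3.05, -1.29, -4.03 and -2.24. Ifng was on the alpha-beta side, at 0.32 (0.14 to 0.51), 2.77 (2.31 to 3.25), 2.61 (1.81 to 3.49) and 7.66 (5.77 to 10.7). In brain S3 3.07% of 8024 genes with at least 50 UMIs were at least 2-fold higher and 9.9% at least 2-fold lower. That minimum is stricter than the 10 UMIs of the list genes, so the shares are not a like-for-like background for the list counts. The shares were 3.18% and 7.49% in brain D3, 4.21% and 11.8% in dura mater S3 and 3.49% and 14.7% in dura mater D3.

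Against NK and group 1 innate lymphoid cells, alpha-beta cells had more Il7r, the interleukin-7 receptor, at log2 ratios of 3.15, 3.46, 2.81 and 3.42, and more Lat, the adaptor of the T cell receptor, at 2.65, 2.38, 2.68 and 2.71. The killing genes were lower, with Gzma at -3.66, -3.55, -4.02 and -5.50, the pore protein gene Prf1 at -3.70, -3.80, -3.11 and -4.15 and Eomes, the transcription factor of NK and memory Cd8 cells, at -3.20, -3.49, -2.86 and -3.14. In brain S3 3.96% of 8048 genes were at least 2-fold higher and 9.77% at least 2-fold lower. The shares were 2.67% and 5.51% in brain D3, 3.83% and 6.2% in dura mater S3 and 3.64% and 9.92% in dura mater D3.

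Across all genes with at least 50 UMIs in a comparison, 538 of 7630 (7.05%) were at least 2-fold higher and 245 (3.21%) at least 2-fold lower in brain D3 than in brain S3. In the dura mater the counts were 55 (1.65%) and 63 (1.89%) of 3328. Brain S3 had 204 (2.79%) higher and 390 (5.33%) lower than dura mater S3 of 7319, and centred on the median of all genes 290 higher and 234 lower. Brain D3 had 213 (5.04%) higher and 130 (3.07%) lower than dura mater D3 of 4229. In low-myeloid members the brain injury count of higher genes was 125 and that of the dura mater 15.

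Outside the lists the largest ratios in the brain included many myeloid genes. In brain D3 178 genes were at least 4-fold higher, led by Gpnmb at 5.73, Pla2g7 at 5.10, Fcgr1 at 4.86, AA467197 at 4.72 and Cd63 at 4.70, most of them known from macrophages and microglia. Gpnmb had UMIs in 14.1% of the members of brain D3 and 2.52% of those of brain S3. In low-myeloid members 7 genes were past 4-fold, 5 of them among the 178. They were led by Spry1, an inhibitor of growth factor signalling, at 2.44, followed by Fcrls at 2.30, Ctsh at 2.15, Trem2 at 2.15 and the chemokine gene Cxcl10 at 2.13. Fcrls and Trem2 are known from microglia and macrophages, so myeloid transcripts were among the largest ratios in these members too. The 30 genes at least 4-fold lower were led by Hmmr at -3.96, Hspb1 at -3.61 and Hist1h2ap at -3.38.

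In the dura mater Wfdc17 and Il1b were higher at D3, at 2.31 and 2.06, and Chil3, Plaur and Adpgk lower, at -4.23, -3.16 and -2.21. None of these genes was among those past 4-fold in low-myeloid members. There 0 genes were past it on the higher side and 1 on the lower side, Ccrl2 at -2.09. Between the sham tissues Hspb1, Pdlim4 and Ly6c1 were higher in the brain, at 4.44, 4.10 and 3.75. Tnfrsf9, the co-stimulatory receptor 4-1BB, and Tnfsf11, the cytokine RANKL, were lower there, at -3.00 and -2.94, beside the myeloid genes Chil3, Ccl2 and Ifitm6.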

How the data were processed

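Sorted CD45+ cells of 4 mouse libraries were profiled with the 10x Genomics Chromium 3' kit. Per the labels and the study's methods, the authors mapped reads to mm10 with Cell Ranger 3.1.0 and used Seurat 3.1.0. Values were deposited on a natural log scale, as ln(1 + UMIs of the gene / UMIs of the cell x 10000), and whole UMI counts were recovered from every value (100% whole within 1e-06). The files list 17485 to 17862 genes per library, and a gene not listed in a library was taken as 0. The libraries hold 49003977, 115154317, 54749012 and 55887697 UMIs for brain S3, brain D3, dura mater S3 and dura mater D3.

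A cell was kept if its number of genes with a UMI lay above 1000 and below 6000 and mitochondrial UMIs were no more than 7%. The study drew an equal random sample of cells from each library, while here all kept cells were used. The members and the 16 T cell and 10 other gene lists were chosen with earlier results of these data known. UMIs were summed over members, divided by the summed UMIs and given per 1e+06 (CPM). Log2 ratios carry exact intervals of a ratio of Poisson counts at 95% confidence. With 1 library per group no test was run and no p-value is given. A group at 0 was set to a floor of 3 UMIs. Counts over all genes required 50 UMIs summed over the pair of groups, and lists required 10. Thinned shares are those expected when 2000 UMIs are drawn from each cell, and no member had fewer. For the share of members with every cell thinned, 20 random draws were averaged. Named genes are those of the lists, the receptor genes, and up to 5 others per direction and comparison at least 4-fold apart, with at least 50 UMIs and UMIs in at least 10 cells of the higher group. Gamma-delta T cells had at least 2 Cd3 genes and Trdc without Cd79a, NK and group 1 innate lymphoid cells Ncr1 and Klrb1c without Cd3 genes, and B cells Cd79a and Cd79b without Cd3 genes. None of these classes had a C1qa limit.

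Scrublet (in scanpy 1.11.5) marked 3, 2, 2 and 0 barcodes at its automatic threshold and was therefore taken as not working. As an alternative the highest scores at 0.8% per 1000 barcodes were removed, 6, 5, 2 and 1 of them members. Doublets were otherwise not removed. Other alternatives were no filter on cells, a stricter receptor rule, no exclusion genes, thinned cells, cells weighted equally, centred ratios and other UMI minimums, and, chosen after seeing the data, low-myeloid members, members with at most 1% mast cell UMIs and fits within Cd4+ and Cd8+ cells. Analyses used Python 3.11.15, numpy 2.4.6, scipy 1.17.1, pandas 2.3.3 and matplotlib 3.10.9, and were tested on simulated data. Some genes are not reported here. Gene positions are those of GENCODE on GRCm38 (mm10).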

Additional observations from a re-analysis of the deposited data

Results flagged for a closer look

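For 5 listed genes the injured brain and the injured dura mater lay on opposite sides of their own controls, with both 95% counting intervals off 0 and at least a 1.4-fold difference each way. These are the ratios of single libraries, and the difference between the tissues was not tested. The share of all genes meeting the same rule is not given here, so the count itself is not read as a result. Rgs1, a regulator of chemokine receptor signalling, had a log2 ratio of 1.07 in the brain and -0.52 in the dura mater, and 0.82 and -0.51 in low-myeloid members. Cxcr4, the receptor for CXCL12, had 0.71 and -0.60, and 0.37 and -0.62 in low-myeloid members. Gzmb had 0.61 and -1.03, and 1.20 and -1.03 in low-myeloid members, with 66% of its dura mater S3 UMIs in 1 cell. Serpinb9, which protects killer cells from their own granzyme B, had 0.49 and -0.99, and 0.86 and -1.11 in low-myeloid members. Tox, a transcription factor of chronically stimulated T cells, had -0.67 and 0.72, and -0.06 and 0.62 in low-myeloid members, where the brain value was close to 0.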

How the results depend on the processing

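No paired analysis was possible because each group has 1 library, and no replicate could be left out. The intervals cover counting error alone, the dura mater levels rest on 80 and 55 cells, and tissue, state and library cannot be told apart. Values were recomputed under each setting. Given here are the shares and leading list medians that moved beyond their counting error, the counts of genes that changed by more than 1.5 times, and the other medians and log2 ratios of genes that turned sign. The cause was not tested, except that other UMI minimums test other numbers of genes and within-subset fits use fewer cells. Removing the marked doublets, or the 1 member over 1% mast cell UMIs, left every share, count of genes and main list median within these limits.

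With at least 20 UMIs the genes at least 2-fold higher and lower were 867 and 531 for brain D3 over S3, 211 and 262 for dura mater D3 over S3, 458 and 712 for brain over dura mater at S3, and 563 and 395 at D3. With at least 100 UMIs they were 335 and 119, 15 and 22, 90 and 197, and 124 and 52. Centred on the median of all genes, brain S3 had 290 higher and 234 lower genes than dura mater S3.

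Members were 12.1% of the cells in brain S3 with no filter on cells, where 105 genes were higher in dura mater D3, Ccr10 in the brain was at 0.023 and Pclaf, Rrm2 and Tk1 between the sham tissues were at -0.35, -0.043 and -0.71. A stricter receptor rule gave 12.5% in brain S3, Gzma at 3.62 in the dura mater and Eomes at 0.44 between the sham tissues. With every cell thinned the share was 11.9% in brain S3 and 2.19% in brain D3, and with the members thinned Cd4+ cells were 14.6%, 9.15%, 16.3% and 18.0% and Foxp3+ cells of brain S3 2.16%.

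Without the exclusion genes, which lets gamma-delta T cells in, members were 20.6%, 3.98%, 5.80% and 5.70% of the cells. Cd4+ cells were then 24.9% in brain S3, 14.0% in dura mater S3 and 15.1% in dura mater D3, Cd8+ cells 30.3%, 13.5% and 8.55%, and Foxp3+ cells of dura mater S3 3.38%. The effector median was 0.29 for brain injury and 0.23 for brain over dura mater at D3, where 352 genes were lower. In the dura mater the interferon median was -0.039 and the proliferation median 0.092, with Mki67 at 0.029, Pclaf at 0.79 and Top2a at 0.34. Between the sham tissues the naive median was 1.18 and the cytotoxic median 0.18, and at D3 Pclaf was at -0.0014 and Rrm2 at -0.22.

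In low-myeloid members 125 genes were higher in brain D3 than in brain S3, 15 higher and 41 lower in dura mater D3 than S3, and 45 higher and 79 lower in brain than in dura mater at D3. Brain medians were -0.78 for naive, 0.84 for interferon and 0.37 for hypoxia genes. In the dura mater the interferon median was -0.36, with Ifit1 at -1.15, Ifit3 at -0.095, Isg15 at -0.47, Rtp4 at -0.92 and Usp18 at -0.81. At D3 Atf3 was at -0.79, Ifit1 at 1.4 and Ifit3 at 0.96 for brain over dura mater.

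Over all members the dura mater medians were -0.18 for naive and 0.08 for effector genes. Within Cd4+ cells the brain medians were -0.85 for naive, 1.84 for interferon and 0.31 for hypoxia genes. Those of the dura mater were -0.92 for naive genes, 1.13 for cytotoxic genes, from only 2 genes, and -0.10 for interferon genes, from 8. The cytotoxic median between the sham tissues was 0.51, from 9 genes. Within Cd8+ cells the brain medians were -1.42 for naive, 0.20 for effector, -0.010 for immediate early, 0.67 for interferon and 1.27 for hypoxia genes, those of the dura mater 0.35 for effector and 1.99 for interferon genes, and those between the sham tissues 1.22 for naive and 0.16 for immediate early genes. With every cell weighted equally the brain medians were -0.81 for naive and 0.73 for effector genes, the dura mater interferon median -0.090, Mki67 in the brain 0.0092, Ifit1, Isg15, Rtp4 and Usp18 in the dura mater -0.18, -0.50, -0.42 and -0.10, and Ifit3 for brain over dura mater at D3 0.25. The naive median of the brain stayed below 0 and the regulatory median of both tissue comparisons below 0 under each setting run, the latter being -0.24 within Cd8+ cells at D3.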

Other observations

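Antigen presentation by MHC class I, the display of peptides that every nucleated cell carries out, had a median log2 ratio of 0.08 over 10 genes in the brain, none of them past 2-fold, and B2m stood at 1792, 1823, 2153 and 2074 CPM in brain S3, brain D3, dura mater S3 and dura mater D3. Adhesion genes had a median of 0.05 over 9 genes, with 1 at least 2-fold higher and 1 at least 2-fold lower. Selplg, the ligand of P-selectin, was at 427, 452, 496 and 512 CPM and had UMIs in 91.3%, 86.7%, 92.5% and 90.9% of the members.

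Among the chemokine receptors not yet described, Ccr9, the receptor of thymic and gut homing, had UMIs in 68, 7, 1 and 2 members, or 13.2%, 5.19%, 1.25% and 3.64%, against 1.47%, 2.06%, 0.98% and 1.01% of B cells. Its level was 36.5, 18.4, 1.35 and 6.76 CPM, so brain S3 was the highest. Gpr183, the oxysterol receptor that positions lymphocytes, was at 134, 162, 104 and 85.7 CPM, or 0.92 (0.42 to 1.46) for brain over dura mater at D3.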
